A study of Mus musculus with 6 samples.

Results

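The fast and slow troponins and tropomyosins are the proteins that regulate the muscle thin filament in response to calcium, and their 10 genes were followed through the fat pad of the knee, a thigh muscle and a tendon of mice. The 10 genes (Tnnc1, Tnnc2, Tnni1, Tnni2, Tnnt1, Tnnt2, Tnnt3, Tpm1, Tpm2 and Tpm3) were taken by gene symbol and joined to the read counts by Ensembl identifier. All 10 were found among the 16964 genes listed in the count tables of all 3 tissues (20672 genes in any of them), and all 10 passed the filter on low counts.

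The study sequenced messenger RNA from 6 libraries, 2 each of infrapatellar fat pad, rectus femoris and Achilles tendon. The infrapatellar fat pad lies below the kneecap, the rectus femoris is part of the quadriceps, and the Achilles tendon joins the calf muscle to the heel. The series title names female mice and letrozole, an aromatase inhibitor that lowers oestrogen synthesis. Both fat pad titles carry the drug's name and no muscle or tendon title does. No label used here marks a treated and an untreated library within a tissue. The submitters' own comparisons set library 1 against library 2 in each tissue, and the labels do not say whether these are replicates or conditions. The sources used here do not give strain, age, dose or time. The source and tissue labels read fat pad for all 6 libraries, so the tissue was taken from the treatment label, which names the 3 tissues. The titles of the fat pad and tendon libraries carry the word combined, and nothing in the labels says that libraries 1 and 2 of a tissue came from different animals. The p-values below treat libraries 1 and 2 of a tissue as replicates. They therefore speak only to differences between libraries, and these may be technical. Drug and tissue cannot be told apart in any comparison with the fat pad. The titles also carry a code that is shared within each tissue and differs between tissues. The labels do not say what this code stands for, and it cannot be told apart from tissue in any comparison.

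In striated muscle, troponin C binds calcium, troponin I holds the thin filament in its inhibited state, and troponin T ties both to tropomyosin, the coiled coil that lies along actin and covers or uncovers the myosin binding sites. Each troponin subunit has a fast form and a slow form encoded by separate genes, and tropomyosin genes also give, through other promoters and splicing, short and long forms in cells that are not muscle. Limb muscles that contract quickly hold mainly the fast forms, while postural muscles such as the soleus, whose tendon joins the Achilles tendon, are rich in the slow forms.

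The stretches just upstream of the start sites of the slow troponin genes and of Tnnc2 are shown because the 3 slow genes moved together below and Tnnc2 is the fast partner of Tnnc1. They are the 250 bases before the RefSeq transcript start on build GRCm38.p6, written 5′ to 3′ on the gene's strand. Capitals mark E-boxes (CANNTG, the element bound by MyoD-family factors), MCAT elements (CATTCC, bound by TEAD factors) and TATA boxes (TATAAA), each searched on both strands.
Tnnc1, chr14:31208062-31208311, plus strand: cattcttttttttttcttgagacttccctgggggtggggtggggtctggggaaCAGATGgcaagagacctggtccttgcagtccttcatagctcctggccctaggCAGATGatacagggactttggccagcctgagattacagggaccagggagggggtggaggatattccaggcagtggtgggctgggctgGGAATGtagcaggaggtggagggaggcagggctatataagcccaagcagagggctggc
Tnni1, first of 2 start sites, chr1:135799171-135799420, plus strand: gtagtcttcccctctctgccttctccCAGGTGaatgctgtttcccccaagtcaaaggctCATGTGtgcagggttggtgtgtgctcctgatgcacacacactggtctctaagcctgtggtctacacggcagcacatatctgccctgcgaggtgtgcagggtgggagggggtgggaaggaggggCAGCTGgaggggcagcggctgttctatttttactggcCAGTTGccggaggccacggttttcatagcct
Tnnt1, chr7:4515976-4516225, minus strand: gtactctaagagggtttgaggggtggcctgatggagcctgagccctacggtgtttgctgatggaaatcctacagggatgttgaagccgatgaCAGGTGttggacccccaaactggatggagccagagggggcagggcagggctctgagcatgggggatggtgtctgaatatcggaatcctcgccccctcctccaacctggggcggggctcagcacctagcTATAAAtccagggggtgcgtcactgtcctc
Tnnc2, chr2:164779735-164779984, minus strand: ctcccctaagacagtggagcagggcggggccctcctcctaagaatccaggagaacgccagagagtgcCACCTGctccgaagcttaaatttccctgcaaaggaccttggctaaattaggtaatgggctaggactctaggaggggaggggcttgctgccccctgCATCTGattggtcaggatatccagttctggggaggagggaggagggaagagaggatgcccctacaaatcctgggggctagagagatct
The Tnnc1 window held E-boxes starting 197 and 145 bases before the start site and an MCAT element 58 bases before it. The Tnni1 window held 4 E-boxes, the nearest 31 bases before the start. The Tnnt1 window held an E-box 158 bases and a TATA box 30 bases before the start, and the Tnnc2 window held E-boxes at 183 and 88 bases. Of the 10 members, 8 had an entry, and each of those 8 had at least 1 E-box in a window, a motif of 6 letters found in 66.2% of all 32851 windows of this length. MCAT elements were found for Tnnc1, Tnnt2 and Tpm1 (12.6% of all windows) and the exact letters TATAAA for Tnnt1 (12.4%). Variants of the TATA box were not searched, and the Tnnc1 window holds tatataa near its end. The MEF2 element was searched as YTAWWWWTAR (2.92% of all windows) and the CArG box as CCWWWWWWGG (1.47%). Here Y is C or T, W is A or T and R is A or G. Neither exact pattern was found in a window of the 8 members, and looser forms were not searched. A match is a description of the letters and was not tested as a site.

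Total counts per library ran from 56216295 to 106319037, deepest in the fat pad. The tissue labels were checked against marker lists in CPM, read counts relative to library size after scaling by the trimmed mean of M-values. The summed CPM of 10 adipocyte genes was 75695 and 81953 in fat pad, 762 and 1435 in the rectus femoris and 4092 and 976 in Achilles tendon. The summed CPM of 10 fibroblast and tenocyte genes was 34928 and 30669 in tendon, above the 3268 to 6817 of the other 4 libraries. The tendon libraries also carried muscle fibre RNA, with a summed CPM of 17608 and 58970 for 12 fast fibre genes and of 13714 and 7588 for 12 slow fibre genes, so the tendon samples held muscle transcripts in amounts that differed between the libraries. The deposited TPM values of muscle and tendon did not follow the counts under the same column names. Across 13806 genes, the log2 ratio of library 2 to library 1 in TPM correlated with that in counts at 0.97 for fat pad, -0.06 for muscle and -0.19 for tendon. This correlation is a description across genes that share the libraries. The values below rest on the counts, and TPM values are given for some of the results where they differ.

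Fat pad held far less of most members than muscle, and muscle and tendon differed in which forms they held. In the fat pad against the rectus femoris, 7 of 10 members were lower and 1 was higher by edgeR's quasi-likelihood test at an adjusted p of 0.05 over 15856 genes, where 59.4% of all genes were called (29.6% lower and 29.8% higher). Against the Achilles tendon, 9 of 10 members were lower and 0 higher (0 also at an unadjusted p of 0.05, and 0 by DESeq2), where 58.5% of all genes were called (31.4% lower and 27.2% higher). In the tendon against the rectus femoris, 4 members were higher and 5 lower, where 26.0% of all genes were called (13.3% higher and 12.7% lower). The median log2 fold change of the members was -5.25, -6.27 and -0.59 in the 3 comparisons, beside 0.14, -0.01 and 0.10 over all genes tested. The comparisons share libraries and are not independent. In whole tissue, fewer muscle fibres and less RNA per fibre cannot be told apart.

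**Figure D1:**
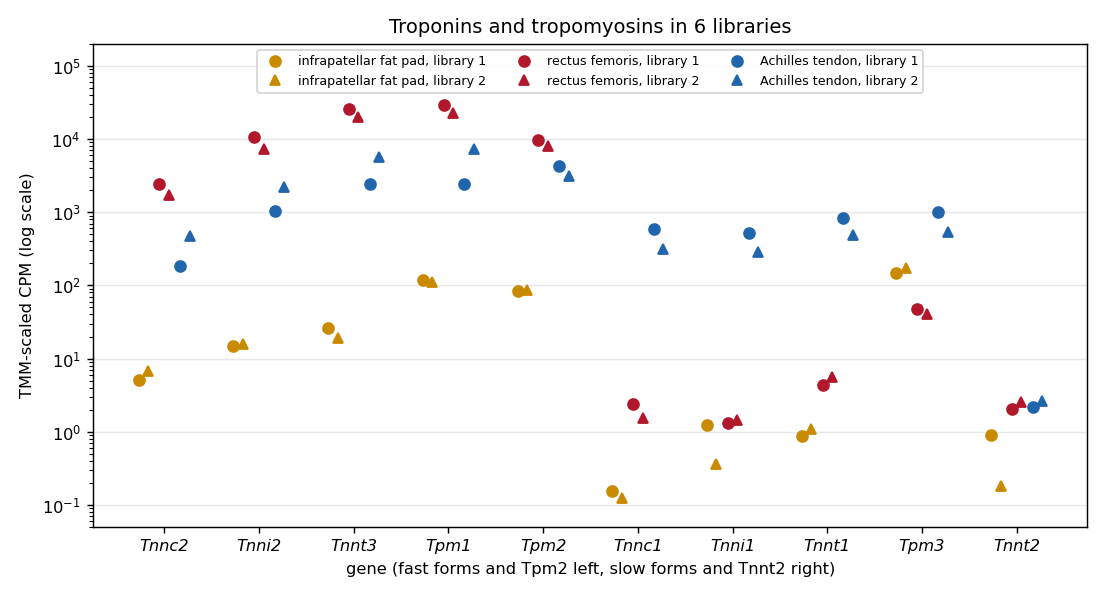
Level of each of the 10 genes in CPM (log axis) in each of the 6 libraries, with fat pad, rectus femoris and Achilles tendon in separate colours and 1 point per library. The slow troponins Tnnc1, Tnni1 and Tnnt1 run from 282 to 837 CPM in tendon and reach at most 5.59 CPM elsewhere, the fast troponins are highest in muscle, and Tpm3 is lowest in muscle.

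In troponin C the slow form was high in tendon and the fast form in muscle. Tnnc1, the troponin C of slow fibres and heart, had a level of 0.155 and 0.124 CPM in fat pad, 2.35 and 1.52 CPM in the rectus femoris and 594 and 310.2 CPM in Achilles tendon. The 3 tissues did not overlap, with tendon far above both others. These levels came from 14 and 14 counts in fat pad, 96 and 69 in the rectus femoris and 46100 and 22568 in Achilles tendon. The difference between tendon and muscle was a log2 fold change of 7.87 ± 0.48 (SE, n = 2 and 2 libraries, adjusted p = 0.00282, edgeR), and Tnnc1 was lower in fat pad than in muscle (log2 fold change -3.78 ± 0.46, adjusted p = 0.000479, edgeR) and than in tendon (log2 fold change -11.65 ± 0.56, adjusted p = 5.56e-05, edgeR).

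Tnnc2, the fast form, had a level of 5.11 and 6.86 CPM in fat pad, 2411 and 1744 CPM in the rectus femoris and 182 and 473 CPM in Achilles tendon. Muscle was highest and the fat pad lowest in every library. In tendon its log2 fold change against muscle was -2.66 ± 0.50 (adjusted p = 0.0144, edgeR), a call lost without muscle library 1 (-2.40, adjusted p = 0.0930, edgeR) or without muscle library 2 (-2.87, adjusted p = 0.0648, edgeR). The fat pad was lower than muscle (log2 fold change -8.44 ± 0.65, adjusted p = 8.14e-05, edgeR) and lower than tendon (log2 fold change -5.77 ± 0.58, adjusted p = 0.000234, edgeR). On the annotation of build GRCm38, 74.0% of the exonic bases of Tnnc2 are also exonic in Ube2c, a ubiquitin-conjugating enzyme of the cell cycle, on the opposite strand. Whether counting used the strand is not given in the sources used here, so the Tnnc2 count is uncertain, whereas the other 9 members share no exonic base with another gene.

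Troponin I also split by form. Tnni1, the inhibitory subunit of slow fibres, had a level of 1.24 and 0.356 CPM in fat pad, 1.30 and 1.43 CPM in the rectus femoris and 516 and 282 CPM in Achilles tendon. Fat pad library 1 was close to muscle and fat pad library 2 lay lower, while tendon stood far above both tissues. Tnni1 was higher in tendon than in muscle by a log2 fold change of 8.19 ± 0.71 (adjusted p = 0.00391, edgeR), which missed the threshold without muscle library 1 (8.13, adjusted p = 0.0581, edgeR) or muscle library 2 (8.27, adjusted p = 0.0574, edgeR).

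Between fat pad and muscle the Tnni1 log2 fold change was -0.79 ± 0.58 (adjusted p = 0.273, edgeR). The fat pad libraries held 112 and 40 counts of Tnni1, and without fat pad library 1 the gene was called lower (-1.90, adjusted p = 0.0222, edgeR). Against tendon the fat pad was lower by -8.98 ± 0.73 (adjusted p = 0.000124, edgeR).

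Tnni2, the fast inhibitory subunit, had a level of 14.7 and 15.7 CPM in fat pad, 10586 and 7307 CPM in the rectus femoris and 1054 and 2248 CPM in Achilles tendon. No tissue overlapped another, and tendon lay between the others. The log2 fold change of tendon against muscle was -2.44 ± 0.48 (adjusted p = 0.0163, edgeR), lost without muscle library 1 (-2.14, adjusted p = 0.104, edgeR) or library 2 (-2.67, adjusted p = 0.0679, edgeR). The fat pad was lower than muscle (log2 fold change -9.20 ± 0.65, adjusted p = 6.55e-05, edgeR) and lower than tendon (log2 fold change -6.76 ± 0.58, adjusted p = 0.000148, edgeR).

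Troponin T repeated the split between slow and fast forms. Tnnt1, the tropomyosin-binding subunit of slow fibres, had a level of 0.863 and 1.10 CPM in fat pad, 4.41 and 5.59 CPM in the rectus femoris and 837 and 494 CPM in Achilles tendon. Tendon was the high tissue and the fat pad the low one, without overlap. Tnnt1 was higher in tendon than in muscle by a log2 fold change of 7.06 ± 0.40 (adjusted p = 0.00282, edgeR). It was lower in fat pad than in tendon (log2 fold change -9.40 ± 0.44, adjusted p = 5.56e-05, edgeR) and than in muscle (log2 fold change -2.34 ± 0.34, adjusted p = 0.00102, edgeR), and the last call was lost in TPM, where limma gave an adjusted p of 0.0632 with a pseudocount of 1. Tnnc1 and Tnnt1 were the 2 members whose tendon against muscle call held without either muscle library.

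Tnnt3, the fast troponin T, led the troponins in muscle per kilobase of exon union (11700.4 and 9783 CPM per kilobase, unscaled) but not in TPM (2995 and 3547, against 5330 and 7433 for Tnnc2). Its level was 26.2 and 18.8 CPM in fat pad, 25513 and 19963 CPM in the rectus femoris and 2403 and 5740 CPM in Achilles tendon. The tissues stood apart in the same order as for Tnni2. In tendon it was lower than in muscle (log2 fold change -2.48 ± 0.56, adjusted p = 0.0228, edgeR), lost without muscle library 1 (-2.29, adjusted p = 0.123, edgeR) or library 2 (-2.64, adjusted p = 0.0841, edgeR). The fat pad was lower than muscle (log2 fold change -9.98 ± 0.77, adjusted p = 8.44e-05, edgeR) and lower than tendon (log2 fold change -7.50 ± 0.70, adjusted p = 0.000189, edgeR).

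Tnnt2, the cardiac troponin T, which is also made in developing skeletal muscle, was low everywhere. Its level was 0.896 and 0.178 CPM in fat pad, 2.03 and 2.51 CPM in the rectus femoris and 2.19 and 2.60 CPM in Achilles tendon. Muscle and tendon overlapped (log2 fold change 0.07 ± 0.75, adjusted p = 0.95, edgeR), and both lay above the fat pad. The fat pad values were -2.08 ± 0.79 against muscle (adjusted p = 0.0557, edgeR) and -2.16 ± 0.79 against tendon (adjusted p = 0.0503, edgeR), and neither passed the threshold. Of 8 genes of developing or regenerating muscle that were tested, 2 were higher and 1 lower in tendon than in muscle, and 7 were lower and 1 (Mymk) higher in fat pad than in each of the others. Of 5 cardiac genes tested, 1 was higher in tendon than in muscle. In tendon against muscle edgeR called 0 genes of either list without muscle library 1 or without library 2. At an unadjusted p of 0.05 it gave 2 higher and 1 lower developing genes in each case, and 2 and 1 higher cardiac genes. Fat pad library 1 held 81 counts of Tnnt2 and library 2 held 20. Without library 1 both passed, at -3.63 (adjusted p = 0.00628, edgeR) and -3.67 (adjusted p = 0.00602, edgeR). DESeq2 on all 6 libraries called Tnnt2 lower against both (adjusted p = 0.0201 and 0.0181). In TPM, limma with a pseudocount of 1 called it higher in tendon than in muscle (0.91, adjusted p = 0.0211).

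The tropomyosins split differently from the troponins. Tpm1, alpha tropomyosin, the main form of fast fibres and heart, had a level of 119 and 113 CPM in fat pad, 29329 and 22582 CPM in the rectus femoris and 2457 and 7254 CPM in Achilles tendon. Muscle was highest and the fat pad lowest. The log2 fold change of tendon against muscle was -2.42 ± 0.60 (adjusted p = 0.0305, edgeR), lost without muscle library 1 (-2.21, adjusted p = 0.146, edgeR) or library 2 (-2.58, adjusted p = 0.0962, edgeR). The fat pad was lower than muscle (log2 fold change -7.81 ± 0.77, adjusted p = 0.000198, edgeR) and lower than tendon (log2 fold change -5.39 ± 0.69, adjusted p = 0.000651, edgeR).

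Tpm2, beta tropomyosin, found in both fibre types and in smooth muscle, had a level of 83.9 and 85.8 CPM in fat pad, 9661 and 8099 CPM in the rectus femoris and 4321 and 3124 CPM in Achilles tendon. Muscle and tendon were closer than for any other called member. Tendon was lower than muscle (log2 fold change -1.25 ± 0.36, adjusted p = 0.0444, edgeR). That call rested on the scaling and on each muscle library: it was lost with total-count scaling (-0.51, adjusted p = 0.263, edgeR), without muscle library 1 (-1.11, adjusted p = 0.224, edgeR) and without library 2 (-1.37, adjusted p = 0.141, edgeR), and it turned to 0.52 in TPM (adjusted p = 0.115, limma, pseudocount 1). The fat pad was lower than muscle (log2 fold change -6.71 ± 0.46, adjusted p = 6.14e-05, edgeR) and lower than tendon (log2 fold change -5.46 ± 0.43, adjusted p = 0.000113, edgeR).

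Tpm3, the gene of slow-fibre alpha tropomyosin and of short tropomyosins in many cells outside muscle, was the only member higher in fat pad than in muscle. Its level was 147 and 172 CPM in fat pad, 46.8 and 40.5 CPM in the rectus femoris and 1009 and 539 CPM in Achilles tendon. The tissues did not overlap. The fat pad exceeded muscle by a log2 fold change of 1.87 ± 0.34 (adjusted p = 0.00292, edgeR) and was lower than tendon (log2 fold change -2.28 ± 0.34, adjusted p = 0.00131, edgeR).

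Tendon exceeded muscle in Tpm3 by 4.15 ± 0.37 (adjusted p = 0.00391, edgeR), lost without muscle library 1 (4.26, adjusted p = 0.0606, edgeR) or library 2 (4.05, adjusted p = 0.0578, edgeR). Counts per gene do not separate the short and long forms. Tpm4, a tropomyosin gene outside the 10 that gives a short form, had a level of 356 and 344 CPM in fat pad, 74.3 and 76.2 CPM in the rectus femoris and 154 and 177 CPM in Achilles tendon. It too was higher in fat pad than in muscle (log2 fold change 2.22 ± 0.20, adjusted p = 0.000148, edgeR) and, unlike Tpm3, higher than in tendon (1.08 ± 0.20, adjusted p = 0.00313, edgeR).

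Smooth muscle and pericyte genes were measured beside the tropomyosins. Their summed CPM over 10 genes was 1014 and 793 in fat pad, 1512 and 1796 in the rectus femoris and 2385 and 1586 in Achilles tendon. Acta2, smooth muscle actin, was at 339 and 360 CPM in fat pad, 113 and 176 CPM in the rectus femoris and 537 and 153 CPM in Achilles tendon. All 10 were detected in the fat pad. Their part in the tropomyosin levels was not tested.

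**Figure D2:**
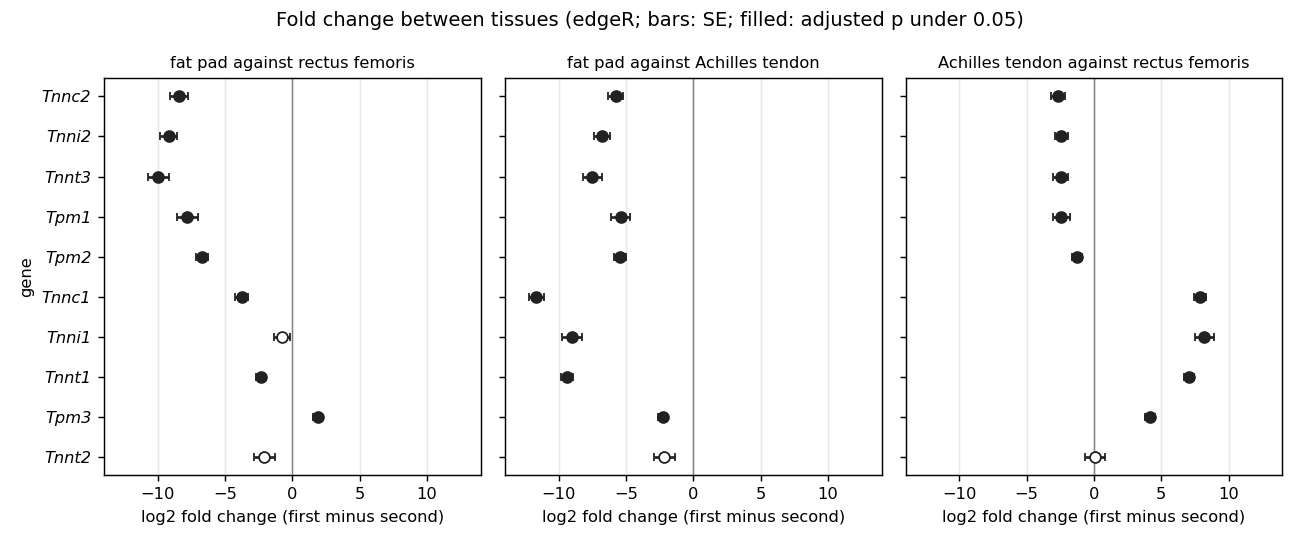
Log2 fold change of each of the 10 genes in the 3 comparisons, with bars of 1 SE from edgeR's fit and filled points where the adjusted p is below 0.05. Tpm3 alone lies above 0 in the fat pad against muscle, and in tendon against muscle the slow forms lie above 0 and the fast forms below it, with Tnnt2 at 0.07.

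The ratio of fast to slow counts was taken in each library for 4 pairs. With 2 libraries a tissue the smallest p of a two-sided exact permutation test is 0.333, so the ratios are given as values with no test. The intervals are exact 95% binomial intervals for counting error only, since molecular identifiers are not mentioned in the labels.

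For troponin C, the ratio of Tnnc2 to Tnnc1 counts was 33.0 (19.5 to 60.8) and 55.1 (32.6 to 101) in fat pad, 1025 (839 to 1265) and 1148 (907 to 1476) in the rectus femoris and 0.307 (0.301 to 0.313) and 1.53 (1.50 to 1.55) in Achilles tendon. Tendon library 1 was the only library with more slow than fast troponin C, and its tendon partner lay on the other side of 1. Tnnc1 made up 71.5% of troponin C per length in tendon library 1 and 33.5% in library 2, with lengths taken as the union of exons, and 76.0% and 38.9% with the median coding transcript. The fat pad ratio rests on 14 slow counts in each library, and the Tnnc2 count is uncertain because of the overlap with Ube2c.

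For troponin I, the ratio of Tnni2 to Tnni1 counts was 11.9 (9.81 to 14.6) and 44.1 (32.3 to 61.9) in fat pad, 8152 (6232 to 10883) and 5105 (4005 to 6615) in the rectus femoris and 2.04 (2.02 to 2.07) and 7.97 (7.85 to 8.09) in Achilles tendon. Fast troponin I led in all 6 libraries, by the least in tendon library 1. Tnni1 made up 16.9% of troponin I per length in tendon library 1 and 4.96% in library 2 by exon union, and 30.4% and 10.1% by the median coding transcript.

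For troponin T, the ratio of Tnnt3 to Tnnt1 counts was 30.4 (24.2 to 38.6) and 17.1 (14.3 to 20.7) in fat pad, 5785 (4999 to 6732) and 3569 (3156 to 4053) in the rectus femoris and 2.87 (2.84 to 2.90) and 11.6 (11.5 to 11.7) in Achilles tendon. The fat pad lay between tendon and muscle in every library of this pair. Tnnt1 made up 20.02% of troponin T per length in tendon library 1 and 5.82% in library 2 by exon union, and 30.8% and 9.93% by the median coding transcript.

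For tropomyosin, the ratio of Tpm1 to Tpm3 counts was 0.809 (0.789 to 0.830) and 0.654 (0.639 to 0.669) in fat pad, 626 (599 to 655) and 557 (532 to 583) in the rectus femoris and 2.44 (2.42 to 2.46) and 13.5 (13.3 to 13.6) in Achilles tendon. Here the fat pad, and not tendon, had the lowest ratio. Tpm3 made up 33.9% and 37.7% of the 3 tropomyosins per length in the fat pad by exon union, and 51.1% and 55.5% by the median coding transcript. In muscle Tpm3 was 0.0980% and 0.106% by exon union. Tpm2 was the leading tropomyosin per length in tendon library 1, at 73.2% by exon union and 52.7% by the median coding transcript.

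**Figure D3:**
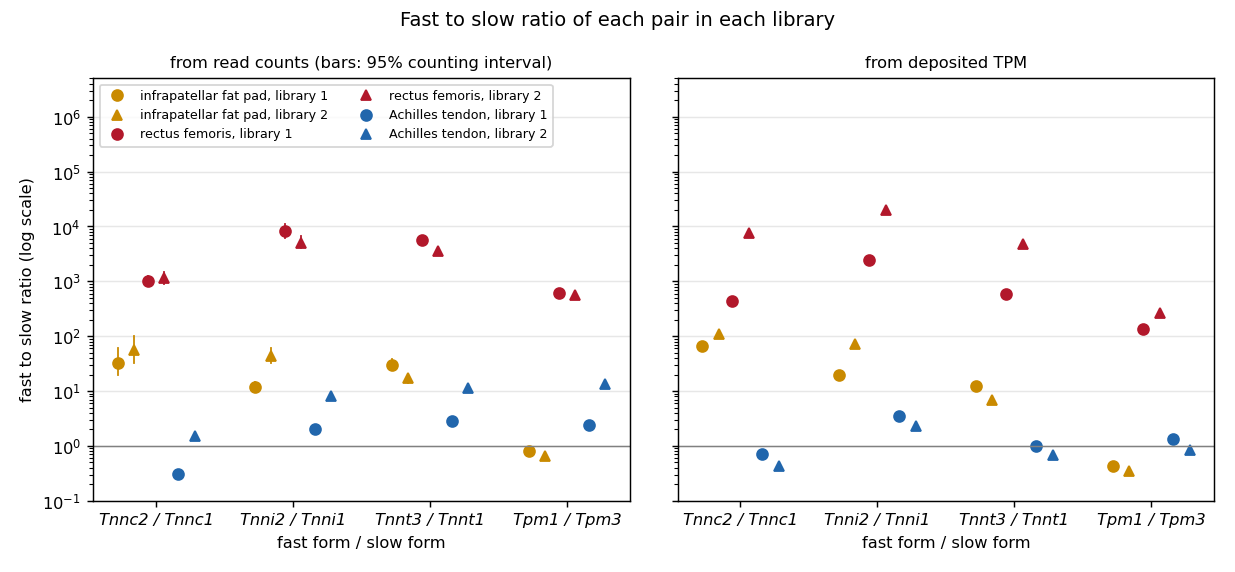
Ratio of fast to slow forms (log axis) for the 4 pairs in each of the 6 libraries. The left panel is from read counts, with vertical bars for the exact 95% counting interval, and the right panel from deposited TPM. In counts, muscle lies above 500 in all 4 pairs and tendon runs from 0.307 to 13.5. The fat pad in counts lies above 10 in the troponins and below 1 for Tpm1 over Tpm3. In TPM, muscle runs from 134 to 20018 and tendon from 0.425 to 3.50. The fat pad in TPM runs from 6.86 to 109 in the troponins and is below 1 for Tpm1 over Tpm3.

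In tendon the summed troponin ratio lay near those of the myosin heavy chains and calcium pumps. The troponin C pair alone, at 0.307 and 1.53, lay below these. The sums are of counts, and their ratios were not taken in TPM. Summed over the 3 pairs, fast over slow troponin counts were 20.4 and 26.1 in fat pad, 4777 and 3396 in the rectus femoris and 1.87 and 7.79 in Achilles tendon. The sum of Myh1, Myh2 and Myh4 (fast myosin heavy chains) over Myh7 (the slow one) was 69.9 and 40.2 in fat pad, 56188 and 17366 in the rectus femoris and 1.74 and 10.4 in Achilles tendon. The largest of these fast chains was Myh2 in tendon library 1 (6177 CPM) and Myh4 in tendon library 2 (19283 CPM). The calcium pump Atp2a1 of fast fibres over Atp2a2 of slow fibres was 0.50 and 0.225 in fat pad, 839 and 616 in the rectus femoris and 2.15 and 9.91 in Achilles tendon. In tendon all 3 measures were lower in library 1 than in library 2. Atp2a2 is also the pump of many cells outside muscle, and the fat pad had the low value there, as it did for Tpm1 over Tpm3.

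The 2 tendon libraries differed in opposite directions for fast and slow members. In scaled counts, library 2 over library 1 was 2.60 for Tnnc2 (95% counting interval 2.55 to 2.65), 2.13 for Tnni2, 2.39 for Tnnt3 and 2.95 for Tpm1. For the slow members it was 0.522 for Tnnc1, 0.546 for Tnni1, 0.590 for Tnnt1 and 0.534 for Tpm3. Tpm2 was at 0.723. The summed CPM of the fast fibre list moved with the fast members, as given above. Of its genes Myh4 rose most, from 596 to 19283 CPM, while Myh2 alone fell, from 6177 to 3145 CPM. The list's part in the differences was not tested. Adipocyte genes summed to 4092 CPM in tendon library 1 and 976 in library 2.

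The muscle libraries differed less. Library 2 over library 1 ran from 0.646 for Tnnc1 to 1.27 for Tnnt1. The fast members Tnnc2, Tnni2, Tnnt3 and Tpm1 ran from 0.690 to 0.782. In the fat pad, Tnni1 at 0.287 (0.195 to 0.415) and Tnnt2 at 0.198 (0.115 to 0.327) were the members furthest from 1, and the other 8 ran from 0.719 to 1.34.

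In TPM these library differences were others. The sign of the log2 ratio of library 2 to library 1 was opposite to that in counts for 7 of 10 members in muscle, 4 of 10 in tendon (Tnnc2, Tnni2, Tnnt3 and Tpm1) and 0 of 10 in the fat pad. In muscle, Tnnc1 was listed at 12.4 and 0.997 TPM where its counts were 96 and 69. The TPM ratio of Tnnc2 to Tnnc1 in tendon was 0.707 and 0.425, so that both tendon libraries had more slow than fast troponin C. The TPM ratio of Tnnt3 to Tnnt1 in tendon was 0.998 and 0.675, against 2.87 and 11.6 in counts. For Tpm1 to Tpm3 in tendon it was 1.34 and 0.850, against 2.44 and 13.5 in counts. In muscle the TPM ratio of Tnnc2 to Tnnc1 was 430 and 7453, against 1025 and 1148 in counts. That of Tnni2 to Tnni1 was 2448 and 20018, and that of Tnnt3 to Tnnt1 was 592 and 4718. For Tpm1 to Tpm3 in muscle it was 134 and 266. The order of the tissues held in TPM for all 4 pairs as a mean of log2 ratios, with muscle highest. Even in the fat pad, where counts and TPM moved together between libraries, their quotient per exon base was 7.76 times the median gene for Tnnt3 and 0.668 times for Tnnc2, the same in both libraries to the second digit, so a ratio between genes depends on the unit.

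**Figure D4:**
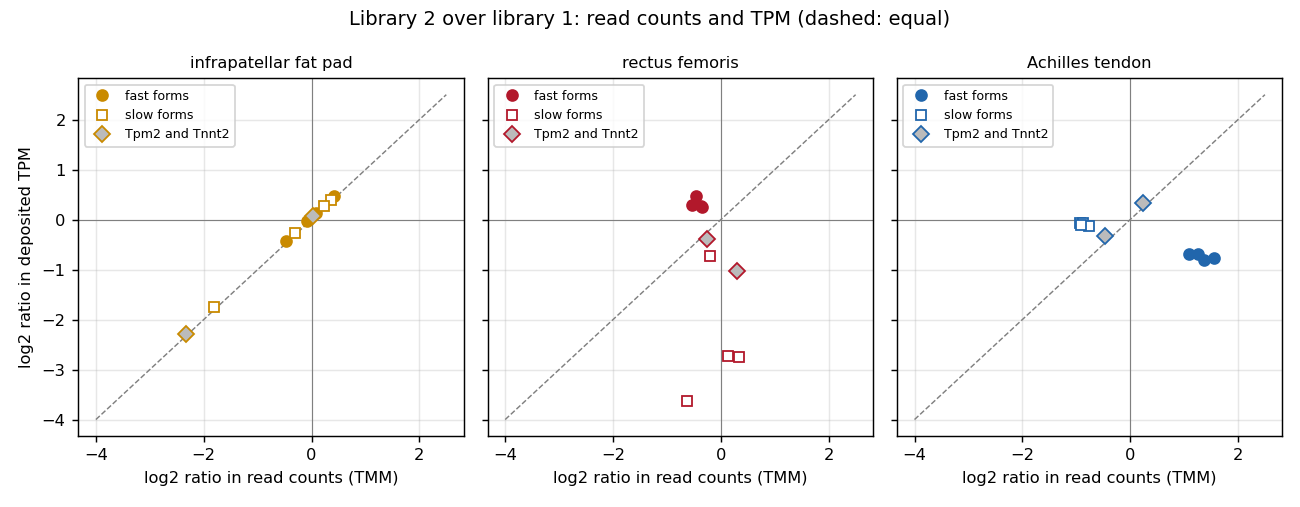
Log2 ratio of library 2 to library 1 in TPM (vertical) against the same ratio in scaled read counts (horizontal) for the 10 genes in each tissue, with circles for fast forms, squares for slow forms, diamonds for Tpm2 and Tnnt2, and a dashed line where both are equal. Fat pad points follow the line, while 7 muscle points and 4 tendon points have opposite signs in the 2 units.

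Within each library the counts of each member were also set against those of Acta1, skeletal muscle actin. Counts of whole tissue do not show whether a member and Acta1 came from the same cells. Acta1 had a level of 110.2 and 110.1 CPM in fat pad, 64837 and 52749 CPM in the rectus femoris and 12053 and 17203 CPM in Achilles tendon. Per 100 Acta1 counts, Tnni2 had 13.4 and 14.3 counts in fat pad, 16.3 and 13.9 in the rectus femoris and 8.75 and 13.1 in Achilles tendon. The fat pad thus lay within the range of muscle or just under it for fast troponin I. Tnnt3 had 23.8 and 17.1 counts in fat pad, 39.3 and 37.8 in the rectus femoris and 19.9 and 33.4 in Achilles tendon.

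Tnnc2 had 4.64 and 6.23 per 100 Acta1 counts in fat pad, 3.72 and 3.31 in the rectus femoris and 1.51 and 2.75 in Achilles tendon. The overlap with Ube2c leaves these Tnnc2 values uncertain. The slow troponins and the tropomyosins were higher per Acta1 count in the fat pad than in muscle. Tnnc1 had 0.141 and 0.113 counts per 100 Acta1 counts in fat pad, 0.00363 and 0.00288 in the rectus femoris and 4.93 and 1.80 in Achilles tendon. Tnni1 had 1.12 and 0.323 in fat pad, 0.00200 and 0.00271 in the rectus femoris and 4.28 and 1.64 in Achilles tendon. Tnnt1 had 0.783 and 1.00 in fat pad, 0.00680 and 0.0106 in the rectus femoris and 6.95 and 2.87 in Achilles tendon. All 3 slow troponins thus lay between muscle and tendon in the fat pad. Tnnt2 had 0.813 and 0.162 in fat pad, above the 0.00314 to 0.0182 of the other 4 libraries. Tpm3 had 134 and 157 counts per 100 Acta1 counts there, against 0.0722 and 0.0769 in muscle and 8.37 and 3.13 in tendon. Tpm2 had 76.1 and 77.9, against 14.9 and 15.4 in muscle, and Tpm1 had 108 and 102, against 45.2 and 42.8. These quotients were added after the data were seen, share Acta1 as their divisor and carry no test.

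The fat pad libraries also held other fibre genes at low levels. The summed CPM of the 12 fast fibre genes was 116 and 112, and that of the 12 slow fibre genes was 60.8 and 50.7. Myod1 and Myf5, transcription factors of muscle precursor cells, were at 0 counts in both fat pad libraries. Mymk, which encodes the myoblast fusion protein myomaker, was at 1.23 and 2.08 CPM in fat pad, 0.221 and 0.0881 CPM in the rectus femoris and 0.271 and 0.151 CPM in Achilles tendon. It was higher in fat pad than in both others (log2 fold change 3.42 ± 0.91, adjusted p = 0.0157, and 2.96 ± 0.87, adjusted p = 0.0229, edgeR). The Mymk calls were lost without fat pad library 2 (2.98, adjusted p = 0.0834, and 2.52, adjusted p = 0.119, edgeR). The call against muscle was also lost without muscle library 2 (2.90, adjusted p = 0.0939, edgeR), and the call against tendon without tendon library 2 (2.60, adjusted p = 0.0992, edgeR). Ncam1, a cell adhesion molecule of muscle precursors and of nerve, was at 6.07 and 5.68 CPM in fat pad, below the other 4 libraries. The part of muscle fibre RNA in the fat pad levels of the members was not tested.

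**Figure D5:**
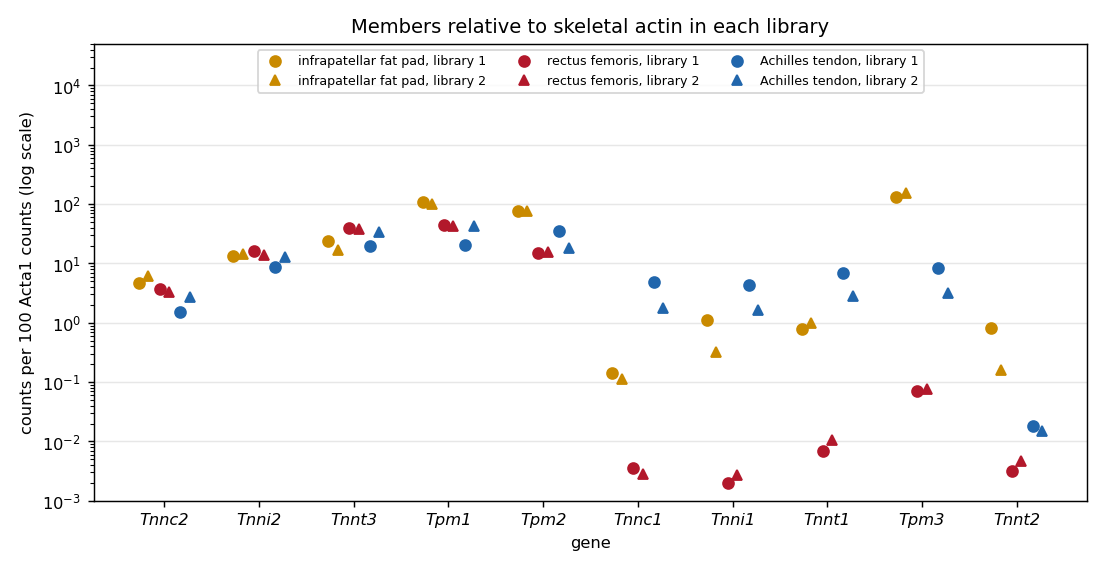
Read counts of each gene per 100 counts of Acta1 (log axis) in each of the 6 libraries, 1 point per library. The fast troponins Tnnc2, Tnni2 and Tnnt3 run from 1.51 to 39.3 over all 6 libraries, whereas Tpm3 runs from 0.0722 in muscle to 157 in the fat pad.

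The partners of the members on the thin filament were mostly lower in the fat pad. Of 15 thin filament genes, 11 were lower and 2 higher in fat pad than in muscle (median log2 fold change -8.60), and 12 lower and 2 higher than in tendon (median -4.40). In tendon against muscle, 3 were higher and 5 lower (median -1.06), which became 4 and 3 with total-count scaling. By edgeR 0 were called without muscle library 1 (3 higher and 5 lower at an unadjusted p of 0.05) and 0 without library 2 (3 and 6), and without tendon library 1 the calls were 2 and 3. Actc1, the cardiac actin also made in skeletal fibres, had a level of 4078 and 3633 CPM in muscle and 9.88 and 159 CPM in tendon (log2 fold change -5.52 ± 1.21, adjusted p = 0.0214, edgeR). Lmod2, a leiomodin that nucleates and lengthens thin filaments, went the other way, with 73.8 and 79.2 CPM in muscle and 288 and 181 CPM in tendon (1.62 ± 0.25, adjusted p = 0.0103, edgeR). Both calls were lost without muscle library 1 (adjusted p = 0.0970 for Actc1 and 0.0949 for Lmod2, edgeR) or library 2 (0.0750 and 0.0706). Tnni3, cardiac troponin I, stayed between 0.196 and 1.98 CPM in all 6 libraries.

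Genes of the fast fibre were all lower in the fat pad, 12 of 12 against each of the other tissues, with medians of -10.87 and -8.58. In tendon against muscle, 5 of the 12 were lower and 0 higher (median -2.80). Myh2 went the other way, at 475 and 2122 CPM in muscle and 6177 and 3145 CPM in tendon (1.84 ± 0.79, adjusted p = 0.125, edgeR). With total-count scaling, and in limma on log2(TPM + 1), 1 fast gene was called higher. Of the 12 slow fibre genes, 8 were higher in tendon than in muscle (median 2.86), and 10 were lower in fat pad than in muscle (median -3.77) and 11 lower than in tendon (median -8.43). Myh7, the slow myosin heavy chain, had a level of 1.79 and 6.12 CPM in muscle and 4983 and 2547 CPM in tendon. Without tendon library 2, 10 of the 12 fast genes were lower in tendon, and without tendon library 1, 8 were. By edgeR, 1 slow gene was higher and 0 fast genes were lower without muscle library 1 (9 and 5 at an unadjusted p of 0.05) and the same counts came without library 2 (10 and 7). All lists were chosen with earlier results of these data known.

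Of 12 regulators of fibre type, 4 were lower and 1 higher in tendon than in muscle (median log2 fold change -0.52). Prox1, a homeobox factor of slow fibres, had a level of 2.5 and 2.71 CPM in muscle and 24.4 and 7.97 CPM in tendon (log2 fold change 2.63 ± 0.54, adjusted p = 0.0181, edgeR). Sox6, a repressor of slow fibre genes, had 199 and 224 CPM in muscle and 38.4 and 82.8 CPM in tendon (-1.80 ± 0.36, adjusted p = 0.0175, edgeR). Eya1 and Tbx15, factors of fast fibres, were also lower, at -1.58 and -1.56. With total-count scaling, 3 of the 12 regulators were higher and 2 lower, and Tbx15 (-0.83, adjusted p = 0.0732, edgeR) was no longer called. By edgeR 0 of the 12 were called without muscle library 1 or without library 2, with 1 higher and 4 lower at an unadjusted p of 0.05 in each. Without tendon library 1, Prox1 (1.60, adjusted p = 0.0741, edgeR) and Tbx15 (-1.43, adjusted p = 0.0616, edgeR) were not called.

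The genes most like the slow troponins across the 6 libraries were found by the root mean square difference of centred log2 CPM. They were Cilp2 at 1.28, Myl3 at 1.37, Myh6 at 1.53, Myoz2 at 1.63 and Chad at 1.64. Myl3 is the light chain of slow and cardiac myosin and Myoz2 a Z-disc protein of slow and cardiac fibres, while Cilp2 and Chad encode matrix proteins of cartilage and tendon. Myh6 is near-identical in sequence to Myh7, so its count is uncertain. The slow troponins themselves lay 0.40 to 0.66 from their mean. The genes most like the fast troponins were closer, Sh3bgr at 0.14, Dupd1 at 0.19, Eno3 at 0.20, Dhrs7c at 0.24 and Rtn2 at 0.31. Eno3 is the muscle form of the glycolytic enzyme enolase.

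Some troponin I and T genes are neighbours in the mouse genome, and not every pair shared a pattern. On the RefSeq gene order of GRCm38.p6, Tnni2 and Tnnt3 are on chromosome 7 with 1 protein-coding gene between them, and both were highest in muscle. Tnni1 and Tnnt2 are on chromosome 1 with 1 gene between them. In tendon against muscle Tnni1 was at a log2 fold change of 8.19 and Tnnt2 at 0.07. Tnnt1 lies next to Tnni3 on chromosome 7, and the log2 fold changes in that comparison were 7.06 for Tnnt1 and 2.28 ± 0.71 for Tnni3 (adjusted p = 0.0565, edgeR). The differences between neighbours were not tested.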

How the data were processed

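Messenger RNA was measured in 6 mouse libraries, grouped by the treatment label into 3 tissues of 2. The authors deposited read counts per gene, TPM per gene and tables of their own comparisons with log2 ratios, p-values and −log10 p-values; these comparison values were not used. In the submitters' processing notes stand Bowtie2, RSEM 1.3.1, DESeq2 1.4.5 and build GRCm39, without roles; strandedness is not given in the sources used here. Deposited counts were analysed as they stand for genes listed in all 3 tables, and 0 columns of per-sample values were left out. The fit used R 4.3.3 and edgeR 4.0.16 with TMM scaling, filterByExpr and the quasi-likelihood test over all 6 libraries with a term per tissue, Benjamini-Hochberg adjustment over 15856 genes and a threshold of 0.05; the biological coefficient of variation was 0.336. Alternatives used DESeq2 1.42.0 (Wald test), limma 3.58.1 on log2(TPM + 1) and log2(TPM + 0.1), other scalings, no filter, a replicate block, the 2 tissues compared only and each library left out. The script was tested on simulated data. All 10 members are named; other genes are named from the lists, or as the 5 nearest in pattern among genes averaging 50 CPM or more in a tissue (log2 CPM with a prior count of 2). Members and lists were chosen with earlier results of these data known. Gene lengths and overlaps came from GENCODE M21 on GRCm38, and promoters from RefSeq.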

Additional observations from a re-analysis of the deposited data

How the results depend on the processing

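With any library left out, fat pad had 7 to 9 members below muscle and 9 to 10 below tendon. In tendon against muscle, members called higher ranged from 2 to 4 and members called lower from 0 to 5 with a library left out; with none of the lower ones called by edgeR, unadjusted p was under 0.05 for 4 without muscle library 1 and 5 without library 2. Lower calls numbered 3 with the replicate block, whose numbers are only accession order (correlations of library deviations -0.02, -0.00 and -0.23), 4 with the crossed block, added after the data were seen, and 2 with only these tissues fitted. Over all genes, tendon against muscle had 2110 higher and 2017 lower calls, which fell to 37 and 6 without muscle library 1, 14 and 5 without library 2, and 1092 and 724 without tendon library 1. Total-count scaling moved the median gene by 0.73, 0.51 and -0.21 and gave 5969 and 398 there, 6350 and 3420 (from 4728 and 4698) for fat pad against muscle, and 3671 and 5449 (from 4308 and 4972) for fat pad against tendon; limma on log2(TPM + 1) gave 4390 and 511, 3000 and 5818, and 1561 and 7941. Over the alternatives, tendon against muscle gave 0 to 10 lower fast fibre genes (9 by DESeq2), 1 to 12 higher slow fibre genes and 0 to 8 lower thin filament partners (8 by DESeq2). The log2 fold change for tendon against muscle of Tnnt2 turned to -0.062 without muscle library 1 and -0.048 without tendon library 2, and that of Tpm2 to 0.52 in both TPM fits.

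Mean log2 ratios of fast to slow counts, with a library left out, ranged for Tnnc2 over Tnnc1 from 5.04 to 5.78 in the fat pad, 10.00 to 10.17 in muscle and -1.70 to 0.61 in tendon (-0.55 with both). They ranged for Tnni2 over Tnni1 from 3.57 to 5.46, 12.32 to 12.99 and 1.03 to 2.99, for Tnnt3 over Tnnt1 from 4.09 to 4.92, 11.80 to 12.50 and 1.52 to 3.54, and for Tpm1 over Tpm3 from -0.61 to -0.31, 9.12 to 9.29 and 1.28 to 3.75. In TPM, the mean was 6.39 in the fat pad and 10.81 in muscle for Tnnc2 over Tnnc1, 3.19, 10.71 and -0.28 in fat pad, muscle and tendon for Tnnt3 over Tnnt1, and -1.39, 7.56 and 0.10 for Tpm1 over Tpm3. The log2 ratio of library 2 to library 1 changed sign in TPM, to 0.48 for Tnnc2, 0.30 for Tnni2, -2.73 for Tnni1, -2.75 for Tnnt1, -1.02 for Tnnt2, 0.24 for Tnnt3 and 0.27 for Tpm1 in muscle, and to -0.80, -0.68, -0.69 and -0.77 for Tnnc2, Tnni2, Tnnt3 and Tpm1 in tendon. The cause was not tested. Depth limits the fat pad values of Tnnc1 (14 counts a library), Tnnt2 (20 and 81) and Tnni1 (112 and 40). It also limits the muscle ratios, whose slow counts were 53 and 65 for Tnni1, 96 and 69 for Tnnc1 and 180 and 254 for Tnnt1.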
